A study of Mus musculus with 3 samples.

Results

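Guidance genes encode the ligands and receptors that steer growing axons and, in epithelia, keep cells apart, hold them together or direct their movement. The set was made of every gene in the deposited files whose mouse symbol begins with the name of a semaphorin, plexin, neuropilin, ephrin, Eph receptor, Slit, Robo, netrin or Unc5 protein. It held 71 of 49120 gene symbols, namely 20 semaphorins, 12 genes named for plexins, 2 neuropilins, 8 ephrins, 14 Eph receptors, 3 Slits, 4 Robos, 3 netrins and 5 genes named for Unc5. Of these, 68 are protein-coding and 3 are antisense RNAs of Plxna4 (Plxna4os1, Plxna4os2 and Plxna4os3). Unc5cl is taken in by its name only and is not a netrin receptor.

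The levels were compared across 3 cell populations sorted from epidermis of the back skin. The mice were C57BL/6 wild types aged 7 weeks and in the second telogen, the resting phase of the hair cycle. The suprabasal bulge stem cells (S) carried CD34 and little integrin alpha 6, the basal bulge stem cells (B) carried CD34 and much integrin alpha 6, and the CD34-negative cells (N) were called non-stem cells. The N gate takes in every sorted cell without surface CD34, so it is a mixture. RNA from 4 mice was pooled into 1 library per population, so no value below has a replicate error, no test was possible, and each difference describes these 3 libraries only. In pooled sorted cells, fewer cells of a type and less RNA per cell cannot be told apart.

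As background, semaphorins bind plexins, and most secreted class 3 semaphorins need a neuropilin as co-receptor. Ephrins sit on the cell surface, A-type ephrins on a lipid (GPI) anchor and B-type ephrins as transmembrane proteins, and they signal to Eph receptor kinases on the neighbouring cell while the ephrin itself can signal backwards. Slits are secreted and bind Robo receptors, and netrins are secreted and bind Unc5 receptors and Dcc. In skin, Eph receptors and ephrins are known from keratinocytes and from the control of progenitor proliferation, and guidance ligands of the skin also steer its nerves and vessels.

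FPKM normalises fragments for transcript length and for the mapped total of the library, which corresponded here to 31.3 M (mega) fragments in S, 32.7 M in B and 35.3 M in N. All levels are scaled FPKM, the deposited value divided by a factor of 0.923 for S, 0.981 for B and 1.104 for N, and can be compared between genes because they are per length. The bulge stem cell markers Cd34, Lgr5, Lhx2, Krt15, Postn, Sox9 and Nfatc1 were all highest in S. The list also held the symbols Tcf3 and Tcf4, which are not the bulge factors Tcf7l1 and Tcf7l2. With them, the list summed to 4690 in S, 2769 in B and 1059 in N. Krt15 led each of these sums, at 3641, 1855 and 1014. Cd34 was at 215.3, 144.5 and 0.201 in S, B and N, Lhx2 at 56.1, 35.05 and 0.911, and Lgr5 at 40.8, 36.45 and 1.05. Inner bulge markers summed to 405.8, 86.4 and 0.827 in S, B and N. Markers of interfollicular basal keratinocytes summed to 1012, 1384 and 2052, and those of differentiating keratinocytes to 869.7, 1633 and 3587. Members of both lists differed in direction. Ly6a, Krt14, Ifitm3, Krt1, Krt10, Ivl and Krtdap were highest in N. Krt5 (959.3, 810.3 and 817.6 in S, B and N), Sbsn (460.2, 122.4 and 84.9) and Lor were highest in S, and Thbs1 in B. Of all summed FPKM in S, 71.1% fell on mitochondrial tRNA, which was listed at 0 in B and N, so totals over all genes were not used for scaling.

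Markers of other cell types differed between the libraries as well. Of 8 fibroblast genes, 3 had a mean of at least 1, with sums of 34.3 in S, 23.3 in B and 0.843 in N, led by Col6a1 at 25.9, 13.9 and 0.242. Col6a2 was at 5.77, 7.28 and 0.0258 and Col1a2 at 1.34, 1.77 and 0.103, while Col1a1, Col3a1, Dcn, Lum and Pdgfra were at most 0.442 (Pdgfra in S). Of 10 Langerhans and myeloid genes, 5 had a mean of at least 1, with sums of 14.2, 13.4 and 41.7 in S, B and N, led by H2-Aa at 4.51, 4.81 and 13.5, while Cd207 was at most 0.343 (S). Of 8 endothelial genes 0 had a mean of at least 1, with sums of 0.905, 2.90 and 0.240, and of 7 muscle and pericyte genes 0, with sums of 0.705, 0.501 and 0.790. T cell genes summed to 1.80, 6.21 and 20.1, with Thy1 the single gene of 8 that reached a mean of 1. Melanocyte genes summed to 35.4, 17.7 and 2.41, with Mitf alone of 7 measured, at 34.4, 16.4 and 2.09. The other 6 were at most 0.513 (Dct in B), with Mlana and Sox10 listed at 0 in S and Mlana, Dct and Tyrp1 at 0 in N. Schwann cell genes summed to 8.66, 8.36 and 16.1, with 2 of 8 measured. The part of any of these cells in the guidance genes described here was not tested.

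Summed semaphorin RNA was highest in CD34-negative cells, whereas summed ephrin, plexin and Slit RNA was highest in suprabasal bulge cells, and single genes carried several of these sums. The summed level of the 20 semaphorins was 50.9 in S, 91.7 in B and 119 in N. The 8 ephrins summed to 101.5 in S, 69.1 in B and 44.4 in N, and the 12 plexin genes to 70.6, 45.7 and 29.1. The Slits summed to 23.4 in S, 2.83 in B and 0.692 in N, and their Robo receptors ran the other way, at 0.652, 5.44 and 5.75. Eph receptors were closer, at 64.0, 60.6 and 52.3, and in the values as deposited at 59.05, 59.45 and 57.7. For semaphorins, ephrins, plexins, Slits and Robos the order of the 3 libraries was the same in the deposited values. Without Sema3c, its most abundant member, the semaphorin sum was 35.05 in S, 58.4 in B and 58.3 in N, and the 6 class 4 semaphorins alone summed to 23.1, 17.8 and 21.1 (21.3, 17.5 and 23.3 as deposited, so that S and N change places). Without Plxna2 the plexin sum was 27.4 in S, 25.7 in B and 25.8 in N, and without Slit3 the Slit sum was 0.5095, 0.453 and 0.1275. The ephrin sum kept its order without Efnb2, at 82.0, 47.4 and 28.3. Without Robo1 the Robo sum was 0.2045 in S, 4.49 in B and 1.28 in N, so that S stayed lowest but B was highest.

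A mean of at least 1 over the 3 libraries was reached by 29 of the 71 genes, and these are called measured. They were 8 semaphorins, 5 plexins, 6 ephrins, 6 Eph receptors, 1 Slit, 2 Robos and 1 Unc5 receptor, and no neuropilin or netrin. Of the other 42 genes, 41 stayed below 1 in every library and 5 were listed at 0 in all 3 libraries (Epha8, Ntn5, Plxna4os3, Plxnb3 and Robo3). Among the 29, Sema3c was the most abundant in N, at the 95.3rd percentile of all 11575 measured genes there. Plxna2 was the most abundant in S, at the 94.0th percentile, and Sema3c also in B, at the 92.5th.

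**Figure D1:**
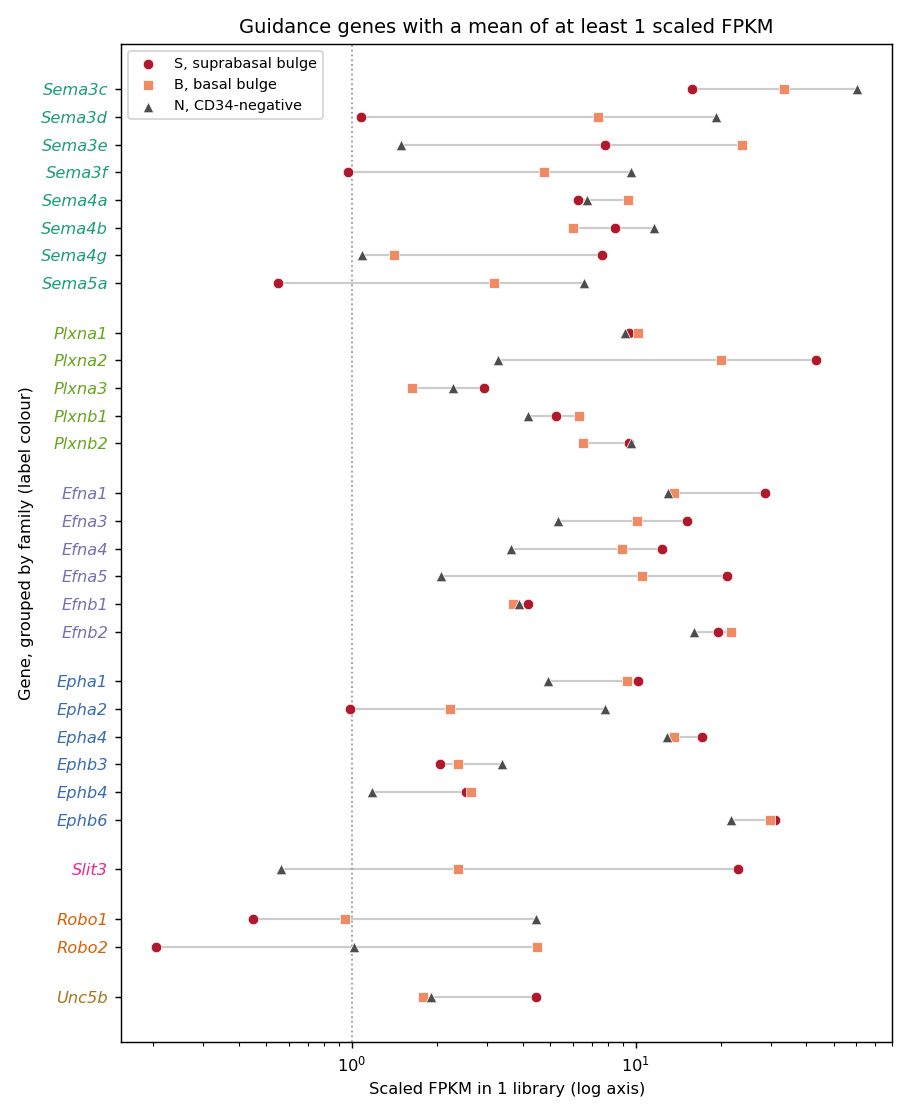
Level of the 29 measured guidance genes in the suprabasal bulge (S, circles), basal bulge (B, squares) and CD34-negative (N, triangles) libraries, in scaled FPKM on a log axis, with 1 library per population and a grey line from the lowest to the highest. In S, Slit3 and Plxna2 lie far to the right of their own N values, at 22.9 and 43.3. Sema3d and Sema5a lie far to the left of theirs, at 1.08 and 0.550 in S.

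For counts, a gene was called when its log2 ratio between a pair of libraries was 1 or more, or -1 or less. The ratio is of levels plus a pseudocount of 1, which understates the difference of low genes, and the rule is called 2-fold below. In S over N, 8 of the 29 measured guidance genes were higher (27.6%), against 9.56% of all measured genes, and 6 were lower (20.7%), against 10.9%. In B over N, 6 were higher (20.7%), against 7.27% of all measured genes, and 3 were lower (10.3%), against 7.1%. In S over B, 4 were higher (13.8%), against 3.89%, and 6 were lower (20.7%), against 5.93%. At least 1 of the 3 comparisons called 15 of the 29 genes (51.7%), against 25.5% of all measured genes. The filter is on the mean, so a gene can pass it through 1 library where it is high. Of the 29 genes, 6 were below 1 in some library (Epha2, Robo1, Robo2, Slit3, Sema3f and Sema5a), and all 6 were called. The same filter was used for all genes, and its part in these shares was not tested. Median log2 ratios were small, at 0.26 for S over N, 0.14 for B over N and 0.05 for S over B, against 0.02, -0.04 and 0.06 over all measured genes, and calls ran both ways. In the values as deposited B over N had 5 of 29 higher and 7 lower, against 6.19% and 9.46% of all measured genes. There S over B had 2 higher and 6 lower, against 3.28% and 6.27%. The comparisons share libraries, since N is in both comparisons with the bulge, and they are not independent.

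**Figure D2:**
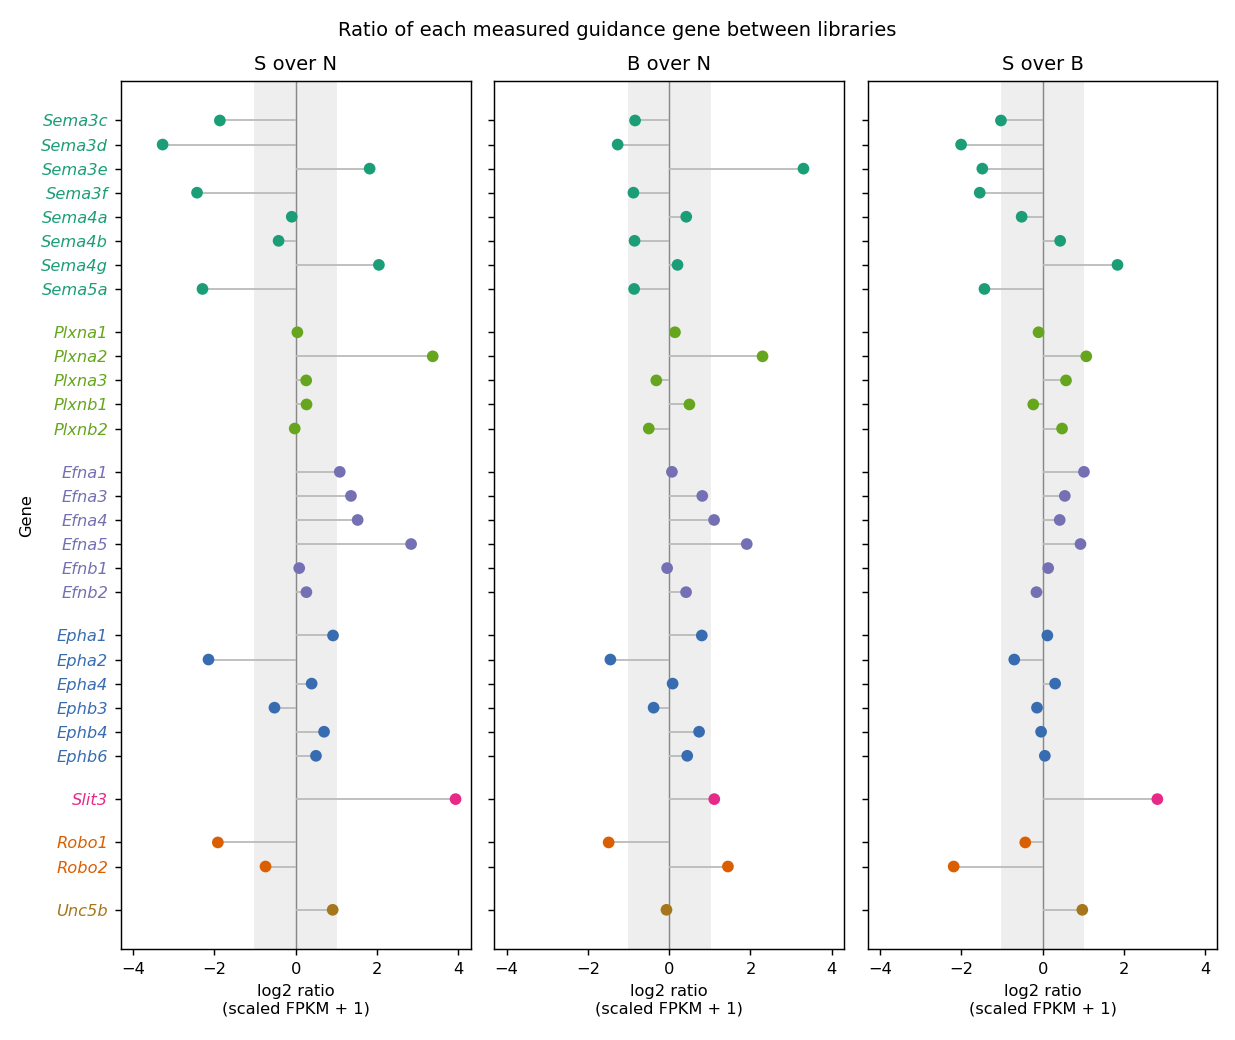
Log2 ratio of scaled FPKM plus 1 for the 29 measured guidance genes in S over N, B over N and S over B, with 1 library per population and therefore no error bars; colours mark families and the grey band the range below 2-fold. The largest ratios were those of Slit3 in S over N (3.93), Plxna2 in S over N (3.37) and Sema3e in B over N (3.30), and on the lower side Sema3d in S over N (-3.27).

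Upstream sequences were chosen from the 8 genes called in the same direction in S over N and B over N, namely Slit3, Plxna2, Sema3e, Efna4 and Efna5 (higher) and Sema3d, Epha2 and Robo1 (lower). Both comparisons use the same N library, so that the shared direction serves here as a choice only. For 6 of them the 250 bases before the RefSeq start lie outside annotated exons of the gene. These 6 windows are given here so that the RefSeq starts of genes with opposite patterns can be compared. They are Efna4 (chr3:89338029-89338278, minus strand), Efna5 (chr17:62881318-62881567, minus strand), Sema3e (chr5:14025026-14025275, plus strand), Epha2 (chr4:141300971-141301220, plus strand), Robo1 (chr16:72662899-72663148, plus strand) and Sema3d (chr5:12382916-12383165, plus strand), from RefSeq in the build GRCm38.p6, each written in the gene's own direction. The Robo1 window precedes the RefSeq start at 72663149, but the GENCODE M21 annotation begins Robo1 at 72308306. This window therefore lies inside the longer gene, and which start these cells use was not tested. Capitals mark CTTTGA on either strand.
Efna4: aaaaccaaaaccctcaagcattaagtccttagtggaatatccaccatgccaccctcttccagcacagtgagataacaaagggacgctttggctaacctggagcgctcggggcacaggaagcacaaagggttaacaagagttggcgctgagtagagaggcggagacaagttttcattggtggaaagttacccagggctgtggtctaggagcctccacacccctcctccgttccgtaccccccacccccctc
Efna5: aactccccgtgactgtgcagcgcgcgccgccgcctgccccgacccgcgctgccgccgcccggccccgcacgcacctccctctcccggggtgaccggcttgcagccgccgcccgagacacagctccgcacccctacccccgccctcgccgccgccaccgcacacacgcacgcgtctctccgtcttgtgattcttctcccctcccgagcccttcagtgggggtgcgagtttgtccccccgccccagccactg
Sema3e: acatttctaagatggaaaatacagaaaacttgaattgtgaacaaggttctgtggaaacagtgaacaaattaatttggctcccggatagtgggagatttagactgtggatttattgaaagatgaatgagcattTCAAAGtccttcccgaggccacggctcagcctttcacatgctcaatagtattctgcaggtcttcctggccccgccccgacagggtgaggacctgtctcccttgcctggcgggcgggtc
Epha2: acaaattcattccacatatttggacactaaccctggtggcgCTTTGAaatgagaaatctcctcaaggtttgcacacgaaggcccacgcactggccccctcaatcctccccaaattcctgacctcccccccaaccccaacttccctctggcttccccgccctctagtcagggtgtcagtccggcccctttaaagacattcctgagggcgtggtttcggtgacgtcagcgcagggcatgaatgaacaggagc
Robo1: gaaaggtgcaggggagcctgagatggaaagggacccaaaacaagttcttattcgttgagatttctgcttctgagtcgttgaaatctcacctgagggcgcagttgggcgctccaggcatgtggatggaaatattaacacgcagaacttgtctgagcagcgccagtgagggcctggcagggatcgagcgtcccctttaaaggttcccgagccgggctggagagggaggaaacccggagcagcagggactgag
Sema3d: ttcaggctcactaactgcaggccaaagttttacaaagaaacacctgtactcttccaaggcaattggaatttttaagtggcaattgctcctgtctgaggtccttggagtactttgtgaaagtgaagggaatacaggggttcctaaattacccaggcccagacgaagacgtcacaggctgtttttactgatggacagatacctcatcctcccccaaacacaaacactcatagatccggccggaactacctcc
The upstream sequence of Efna5 was the richest in G and C of the 6, at 74.8% with 32 CpG, and that of Sema3d the poorest, at 46.8% with 4 CpG, against medians of 52.4% and 6 CpG over 32817 RefSeq windows of the same length. Efna4 had 54.4% and 7 CpG, Sema3e 48.0% and 7, Epha2 55.6% and 9, and Robo1 56.0% and 11. The core CTTTGA bound by Tcf and Lef factors was searched on both strands and was present in Sema3e (118 bases before the start) and Epha2 (209 bases before), that is in a gene higher and a gene lower in the bulge, and in 13.8% of all windows. The Sox core ACAATG (10.7% of windows), the LIM homeodomain core TAATTA (4.85%, the same on both strands) and the TATA box TATAAA (12.4%) were not found in these 6 windows, and the matches overlap no other searched sequence. A match is a description of letters only.

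Of the 7 secreted class 3 semaphorins 4 were measured, and all 4 were lower in S than in B. Sema3c, which signals through neuropilins and plexins, is on chromosome 5 (17574281 to 17730268, mm10, plus strand, ENSMUSG00000028780). Its level was 15.9 in S, 33.35 in B and 60.45 in N. It was thus the highest of the 29 genes in N, lower in B and lowest in S, with a log2 ratio of -1.87 for S over N, -0.84 for B over N (-1.01 as deposited) and -1.03 for S over B. In fold terms, S was 3.81-fold lower than N, with a 95% counting interval of 3.65 to 3.98. Such intervals are exact binomial intervals on fragment numbers estimated from FPKM, transcript length and depth. They cover counting error only, not amplification or differences between mice.

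Sema3d, another secreted class 3 member on the same chromosome (12383385 to 12588948, plus strand), was at 1.08 in S, 7.36 in B and 19.1 in N. The S library was 17.7-fold lower than N (counting interval 14.99 to 20.9) and 6.81-fold lower than B (5.72 to 8.12), and B was 2.60-fold lower than N (2.43 to 2.78). Sema3f, a class 3 ligand that prefers neuropilin 2, is on chromosome 9 (107681500 to 107710475, minus strand) and had the same order, at 0.972 in S, 4.77 in B and 9.62 in N. Its log2 ratios were -2.43 for S over N, -0.88 for B over N (-1.03 as deposited) and -1.55 for S over B. Sema3c, Sema3d and Sema3f therefore all had their highest level in CD34-negative cells and their lowest in suprabasal bulge cells.

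Sema3e broke this order. It encodes the ligand that can bind Plxnd1 without a neuropilin and lies on chromosome 5 (14025276 to 14256689, plus strand), between Sema3d and Sema3c. Its level was 7.80 in S, 23.6 in B and 1.495 in N, so the basal bulge library was highest and N lowest. B was 15.8-fold higher than N (counting interval 14.3 to 17.5), S was 5.22-fold higher than N (4.67 to 5.84), and S was 3.03-fold lower than B (2.86 to 3.21). Sema3a, which lies between Sema3d and Sema3e on the chromosome, was at most 0.0937 (B), Sema3b at most 0.147 (S) and Sema3g at most 0.0273 (B).

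Among the membrane-bound semaphorins, Sema4g and Sema5a were called. Sema4g, a transmembrane class 4 member on chromosome 19 (44989101 to 45003397, plus strand), was at 7.62 in S, 1.41 in B and 1.09 in N. S stood alone, 7.01-fold higher than N (counting interval 6.00 to 8.26) and 5.42-fold higher than B (4.65 to 6.35). Sema4a, known as a ligand in immune cells as well, was at 6.25 in S, 9.38 in B and 6.76 in N, and Sema4b at 8.43, 6.00 and 11.6. Neither was called in any comparison, although Sema4b reached -1.01 for B over N in the values as deposited. Sema5a, a membrane-spanning semaphorin with thrombospondin repeats on chromosome 15 (32244813 to 32696341, plus strand), was at 0.550 in S, 3.18 in B and 6.605 in N. It shared the order of Sema3c, Sema3d and Sema3f, and S was 12-fold lower than N (10.3 to 14.1) and 5.78-fold lower than B (4.92 to 6.83). The remaining class 4, 5, 6 and 7 semaphorins stayed below 1, the highest being Sema4c (0.822 in N), Sema4d (0.780 in N) and Sema6a (0.745 in S).

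Among the semaphorin receptors, Plxna2 stood apart from the other plexins. Plxna2, a class A plexin on chromosome 1 (194618218 to 194816869, plus strand, ENSMUSG00000026640), was at 43.3 in S, 20.03 in B and 3.28 in N. Both bulge libraries were far above N, S by 13.2-fold (counting interval 12.5 to 13.9) and B by 6.10-fold (5.76 to 6.47). The difference between the bulge layers was 2.16-fold (2.099 to 2.22), a log2 ratio of 1.07 that was 0.99 as deposited and 0.97 when scaled on nuclear protein-coding genes with a mean of at least 5, and so rests on the scaling for its call. It had more fragments than any other guidance gene in S and B, estimated at 13810 in S, 7088 in B and 1412 in N.

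The other 4 measured plexins were within 2-fold in every comparison. Plxna1 was at 9.47 in S, 10.2 in B and 9.18 in N, and Plxnb2, a receptor for class 4 semaphorins, at 9.46, 6.51 and 9.64. Plxnb1, the receptor of Sema4d, was at 5.25, 6.33 and 4.20, and Plxna3 at 2.92, 1.63 and 2.28. No population stood apart in these 4 genes, and Plxna1 and Plxnb2 changed sign between scalings in comparisons with N. Of the exon bases of Plxna1 10.7% overlap Gm26811 on the other strand, which was at most 0.377 (N). Plxnd1, the receptor of Sema3e, stayed below 1 at 0.176 in S, 0.779 in B and 0.389 in N. The neuropilins were also low, Nrp1 at 0.00966 in S, 0.352 in B and 0.205 in N, and Nrp2 at 0.313, 0.607 and 0.868, so neither neuropilin reached 1 in any library.

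Of the 5 A-type ephrins, 4 were measured, and each was called higher in S over N, while neither measured B-type ephrin was called. Efna1, on chromosome 3 (89271733 to 89281142, minus strand), was at 28.6 in S, 13.6 in B and 13.0 in N. It stood out in the suprabasal library, with a log2 ratio of 1.08 for S over N and 1.02 for S over B, against 0.07 for B over N. Both calls were near the threshold, and as deposited the ratios were 0.84, 0.93 and -0.09. The S over B call was also lost in both scalings on nuclear protein-coding genes, at 0.97 and 0.92.

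Efna3 and Efna4 follow Efna1 on chromosome 3, with 32.8 kb between Efna1 and Efna3, 10.4 kb between Efna3 and Efna4, and 0 other protein-coding genes in the gaps. Efna3 (89313899 to 89322965, minus strand) was at 15.2 in S, 10.1 in B and 5.32 in N, and Efna4 (89333390 to 89338028, minus strand) at 12.4, 8.99 and 3.65. All 3 genes of this cluster were highest in S, but they differed in B over N, with log2 ratios of 0.07, 0.81 and 1.104 for Efna1, Efna3 and Efna4, the last being 0.97 as deposited. Of the exon bases of Efna3 14.1% overlap the antisense gene Gm15998 and of Efna4 10.5% overlap 4731419I09Rik, both of which were at most 0.732 in any library.

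Efna5, an A-type ephrin on chromosome 17 (62604184 to 62881317, minus strand, ENSMUSG00000048915), had the steepest gradient of the family. It was at 20.9 in S, 10.5 in B and 2.07 in N. S was 10.1-fold above N (counting interval 8.70 to 11.9), B 5.08-fold above N (4.34 to 6.00), and S 1.99-fold above B (1.82 to 2.18), just under the size rule on the log2 scale (0.93). Efna2 stayed below 1, at 0.743 in S, 0.304 in B and 0.410 in N. The B-type ephrin Efnb2, the main partner of Ephb4, was at 19.5 in S, 21.8 in B and 16.1 in N, and Efnb1 at 4.17, 3.70 and 3.87. The A-type ephrins summed to 77.8 in S, 43.5 in B and 24.4 in N, and the B-type ephrins to 23.7, 25.6 and 19.98, so the difference of the ephrin family lay in its A-type members.

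Among the Eph receptors, Epha2 was the single gene called. Epha2, a receptor kinase of keratinocytes on chromosome 4 (141301240 to 141329384, plus strand), was at 0.987 in S, 2.22 in B and 7.79 in N. It ran opposite to the A-type ephrins, 7.90-fold lower in S than in N (counting interval 6.48 to 9.64) and 3.50-fold lower in B than in N (3.07 to 4.00). S was 2.25-fold lower than B (1.80 to 2.82), with a log2 ratio of -0.70 that did not pass the rule and was -1.097 with a pseudocount of 0.1.

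The most abundant Eph receptor in all 3 libraries was Ephb6, whose kinase domain is inactive, at 30.9 in S, 29.7 in B and 21.6 in N. Epha4, which binds ephrins of both types, was at 17.2, 13.7 and 12.9. Epha1 was at 10.2 in S, 9.33 in B and 4.93 in N, 2.07-fold higher in S than in N (counting interval 1.86 to 2.29) but not past the rule at a log2 ratio of 0.92. Of its exon bases 6.01% overlap Zyx on the opposite strand, which was at 24.1, 15.4 and 4.955, and the use of strand in counting is not given in the sources used here. The low receptors Ephb4 (2.54 in S, 2.63 in B and 1.18 in N) and Ephb3 (2.05, 2.36 and 3.39) went in opposite directions against N. Neither passed the rule. Ephb4 was 2.15-fold above N in S (counting interval 1.78 to 2.59) and 2.23-fold above N in B (1.86 to 2.68). Its log2 ratios of 0.70 and 0.74 became 1.04 and 1.09 with a pseudocount of 0.1, past the rule. The other 8 Eph receptors stayed at or below 0.404 (Ephb2 in N). Apart from Epha2, the log2 ratios of the measured Eph receptors for S over B lay between -0.14 (Ephb3) and 0.31 (Epha4).

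Slit3 had the largest difference of the whole set. It encodes a secreted Robo ligand and spans 35121224 to 35708507 of chromosome 11 (plus strand, ENSMUSG00000056427). Its level was 22.9 in S, 2.38 in B and 0.565 in N. Suprabasal bulge cells were 40.5-fold above N (counting interval 33.7 to 49.3) and 9.63-fold above B (8.68 to 10.7), and B was 4.21-fold above N (3.41 to 5.23). The value in N rests on an estimated 115 fragments, against 3460 in S and 398 in B. Slit1 was at 0.400 in S, 0.0562 in B and 0 in N, and Slit2 at 0.109, 0.397 and 0.128.

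The Robo receptors were lowest where Slit3 was highest. Robo1, on chromosome 16 (72663149 to 73046095, plus strand), was at 0.448 in S, 0.947 in B and 4.46 in N. It was 9.98-fold lower in S than in N (counting interval 8.11 to 12.4) and 4.72-fold lower in B than in N (4.09 to 5.44). Robo2, its neighbour on the chromosome (73892306 to 74411825, minus strand) at a distance of 846 kb, was at 0.204 in S, 4.49 in B and 1.02 in N. Basal bulge cells stood out for Robo2, 4.42-fold above N (3.903 to 5.02). The S library was 22.0-fold lower than B (16.3 to 29.7) and 4.97-fold lower than N (3.63 to 6.83). So the measured Robo gene of N was mainly Robo1 and that of B mainly Robo2. Robo3 was listed at 0 throughout, and Robo4, known from endothelial cells, at 0, 0 and 0.267 in S, B and N.

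Netrins and the Unc5 and Dcc receptors were low, whereas Neo1, which encodes neogenin, another netrin receptor, was at 16.1 in S, 17.5 in B and 11.9 in N. Unc5b, a netrin receptor on chromosome 10 (60762610 to 60831581, minus strand), was at 4.46 in S, 1.78 in B and 1.91 in N. S was 2.34-fold above N (counting interval 2.05 to 2.67) and 2.51-fold above B (2.17 to 2.91), and the log2 ratios of 0.91 and 0.98 fell just short of the rule. With a pseudocount of 0.1 they were 1.18 and 1.28, past the rule. Ntn4, a netrin of basement membranes, did not reach a mean of 1 and was at 0.019 in S, 1.39 in B and 0.864 in N, with about 2, 162 and 123 fragments. Its log2 ratio of -1.23 for S over B would have passed the size rule. Ntn1 was at most 0.0570 in any library, and Unc5a, Unc5c, Unc5cl and Unc5d at most 0.447.

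Between the bulge layers, Slit3, Sema4g, Plxna2 and Efna1 were at least 2-fold higher in S, and Robo2, Sema3c, Sema3d, Sema3e, Sema3f and Sema5a lower. Of the 6 lower genes, 5 are semaphorins, and the sixth is a Slit receptor. The 4 higher genes include a ligand of each of the Slit, semaphorin and ephrin families and a single receptor. Of these, Efna1 fell below the rule in every other scaling, at 0.93 as deposited and 0.97 and 0.92 on nuclear protein-coding genes. Plxna2 did so as deposited (0.99) and on such genes with a mean of at least 5 (0.97). Slit3 and Sema4g kept their calls. B lay between S and N for 17 of the 29 genes (58.6%), against 48.0% of all measured genes. Those 17 comprised 10 genes that were highest in S and 7 that were highest in N.

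**Figure D3:**
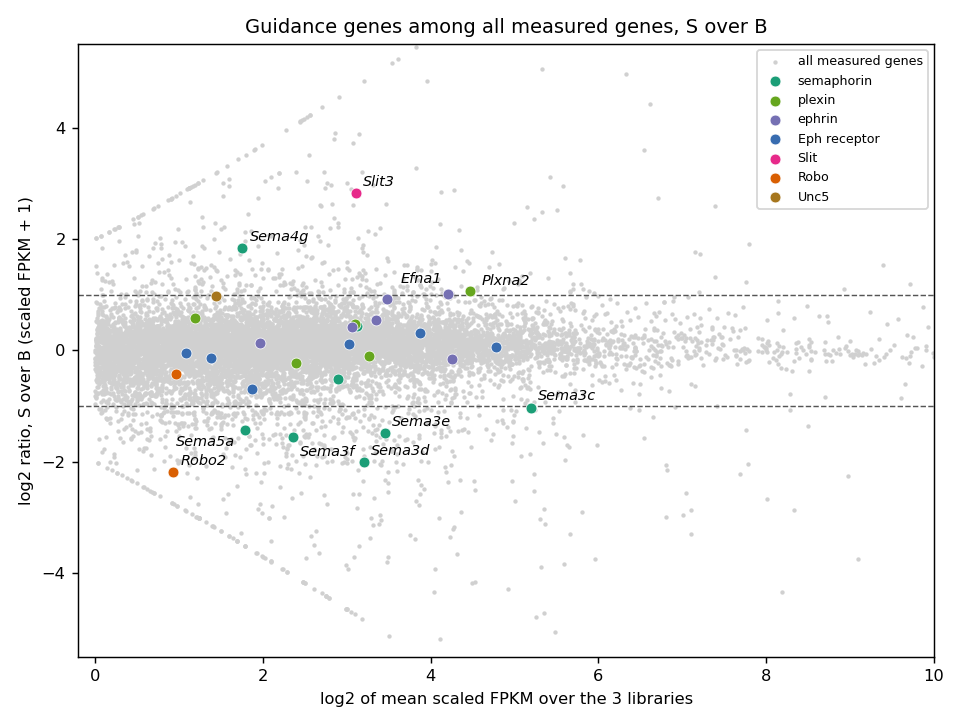
Log2 ratio of S over B (scaled FPKM plus 1) against the log2 of the mean level for all 11575 measured genes (grey; 66 lie outside the axes) and the 29 measured guidance genes (coloured by family), with names for the called genes; dashed lines mark 2-fold. Slit3 (2.82) and Sema4g (1.84) lie above the band and Robo2 (-2.19) and Sema3d (-2.01) below it, while Plxna2 (1.07), Efna1 (1.02) and Sema3c (-1.03) lie close to its edge.

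Genes that work with these receptors were looked at as a list of 92 co-receptors, other ligands and signalling proteins, chosen from general knowledge, of which 72 were measured. In S over N 14 were higher (19.4%, against 9.56% of all measured genes) and 7 lower (9.72%, against 10.9%). In B over N 13 were higher (18.1%, against 7.27%) and 3 lower (4.17%, against 7.1%). In S over B 3 were higher (4.17%, against 3.89%) and 1 lower (1.39%, against 5.93%). The list's median log2 ratios were 0.10, 0.00 and 0.08 for S over N, B over N and S over B. The 10 genes that had a mean of at least 5 and passed the rule in some comparison are named below, as a choice only.

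Sdcbp, which encodes syntenin, an adaptor that binds B-type ephrins and syndecans, was at 158 in S, 87.6 in B and 37.8 in N. Enah, an actin regulator, was at 22.7, 15.2 and 6.47, and Mical2, of a family of actin-oxidising enzymes of which some bind plexins, at 13.3, 6.72 and 3.66. These 3 genes had the order of Plxna2 and Efna5, highest in S and lowest in N. Maged1, a binding partner of Unc5 receptors, was at 18.25 in S, 24.35 in B and 5.68 in N, and Arhgef11, which binds B-type plexins, at 9.12, 14.1 and 5.12. Flrt2, a membrane ligand of Unc5 receptors, was at 10.4, 21.7 and 9.89. In these 3 genes the basal bulge library was the highest.

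L1cam, an adhesion molecule that acts with neuropilin 1, was at 8.64 in S, 3.145 in B and 3.27 in N. Met, a receptor kinase that associates with B-type plexins, was at 2.68 in S, 9.19 in B and 12.7 in N. Srgap2, of a family of proteins that bind Robo, was at 3.21, 5.87 and 9.75, and Vav3, an exchange factor that acts below Eph receptors, at 2.53, 4.78 and 9.78. Met, Srgap2 and Vav3 followed the order of Sema3d and Robo1, highest in N. Dcc, the netrin receptor, was at most 0.0331 in any library.

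**Figure D4:**
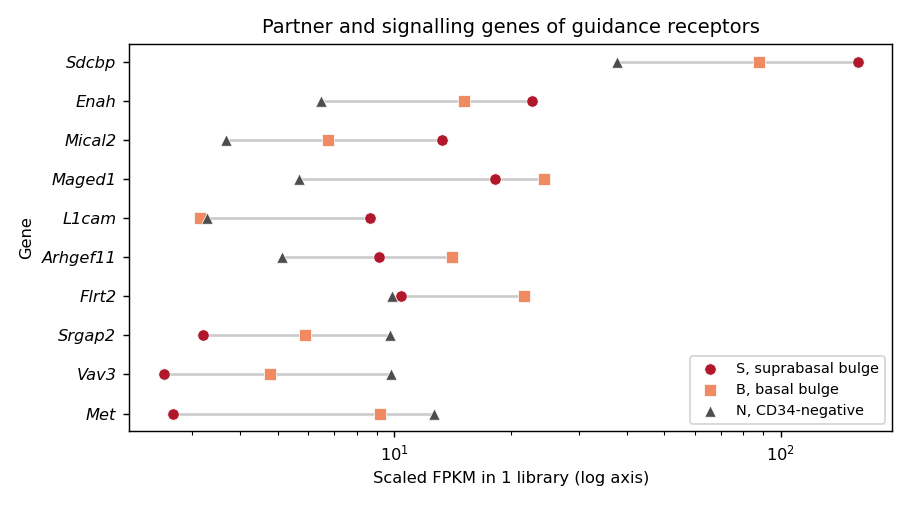
Level of the 10 partner and signalling genes with a mean of at least 5 and a 2-fold difference in some comparison, in scaled FPKM on a log axis, in the suprabasal bulge (S), basal bulge (B) and CD34-negative (N) libraries, 1 library each. Sdcbp, Enah, Mical2 and L1cam are highest in S, Maged1, Arhgef11 and Flrt2 in B, and Srgap2, Vav3 and Met in N.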

How the data were processed

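FPKM values per Ensembl gene were deposited by the authors for 3 libraries, 1 per population, and the unit is given per the file headers for N and S. For B the header names only the population, and its values show the unit. Per the labels' protocols, RNA was pooled over 4 mice, amplified from poly(T) and random primers, made into Nextera XT libraries and read with paired ends of 75 bp. The submitters' processing notes name TopHat2 2.0.12, Cufflinks 2.1.1, DESeq2 and mm10 without a role, and no annotation.

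Each table had 49452 rows, of which 49195 had a symbol, 49109 from a table of gene names and 86 from GENCODE M21; 257 had none and were left out. Rows of a symbol were summed. Scaling factors were medians of ratios to the geometric mean, taken over 18559 genes detected in every library. Genes with a mean scaled FPKM of at least 1 were kept (11575). Coordinates are those of the files (mm10), which for 24 of the 29 measured guidance genes were the same in GENCODE M21. No statistical test was possible with 1 library per group.

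Depth came from the spacing of low values in single-exon genes of at least 3000 bp. Between 95.7% and 97.9% of values under 10 fragments lay within 0.1 of a whole fragment. At 1 FPKM, a 2 kb transcript has 62.7 fragments in S, 65.4 in B and 70.6 in N, and its counting SD is 11.9% to 12.6%. Fragments of a gene were estimated with the median length of its protein-coding transcripts. The libraries were amplified and carry no molecular identifiers, so the intervals cover counting error only.

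The guidance genes and the gene lists were chosen with earlier results of these data known. Every measured guidance gene is named, and others where a library reached 1 or to complete a family. Partner genes are named at a mean of at least 5 and a 2-fold difference; Dcc, Neo1 and the low family members were picked after their values were seen. Python 3.11.15, pandas 2.3.3 and scipy 1.17.1 were used. Scaling, pseudocount, filter and row summing were varied.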

Additional observations from a re-analysis of the deposited data

Results flagged for a closer look

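Robo2 differed in direction between the bulge populations when each was set against CD34-negative cells. Its log2 ratio was -0.74 for S over N and 1.45 for B over N, with the counting interval of the fold clear of 1 in both. Without the pseudocount, S was 4.97-fold lower than N (counting interval 3.63 to 6.83), at an estimated 48 and 319 fragments. The difference in direction was not tested, with 1 library per population and the N library shared.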

How the results depend on the processing

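No paired analysis was possible because each population has 1 library, and for the same reason no replicate could be left out. No called ratio of a named gene changed its sign under the alternatives for scaling, pseudocount, filter and row summing in which it was computed. As deposited, B over N had 7 of 29 genes lower (9.46% of all genes) and S over B 2 higher (3.28% of all genes). The median log2 ratio of the guidance genes was then -0.013 for B over N and 0.053 for S over N. The all-gene medians shifted as well, to -0.18 in both. With the same total over nuclear protein-coding genes the median for B over N was 0.28, against an all-gene median of 0.08. With ratios over nuclear protein-coding genes with a mean of at least 5, S over B had 2 higher genes and a median of -0.047. Of all genes 3.31% were higher there, and the all-gene median was -0.019. Without the filter the median for S over N was 0, and so was the all-gene median. With a mean of at least 5 (19 genes), B over N had 1 lower gene and S over N 3, against 7.15% and 10.4% of all such genes. The medians were 0.42 for B over N and 0.39 for S over N, against all-gene medians of -0.09 and 0. Fewer genes were counted by construction. A pseudocount of 0.1 lost no call and added 8, for Ephb4, Sema5a, Epha1, Robo2, Unc5b and Epha2. The all-gene shares rose as well, in S over N to 13.6% higher and 13.9% lower. Keeping the row with the highest mean changed no call. Counting error at this depth limits the genes below 1 scaled FPKM most.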

Other observations

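Some small ratios that were not called changed sign with the scaling. These were Efna1, Efnb1, Epha4, Plxna1 and Unc5b in B over N, Efnb1, Plxna1 and Plxnb2 in S over N, and Ephb6 in S over B. The largest of them in size as first scaled was 0.14 (Plxna1, B over N), which was -0.013 as deposited.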
